A study of Mus musculus with 32 samples.

Results

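Gene expression was compared between the 5 stroma arrays with the highest and the 5 with the lowest signal of 3 mitotic genes, Aurka, Ccnb1 and Foxm1, among the 16 stroma arrays of a mouse tumor study. MCG 101, a transplantable mouse sarcoma, was grown in wild-type mice and in mice lacking EP2 (gene Ptger2), a receptor for prostaglandin E2. Tumor and the stroma around it were each profiled on 16 arrays, 8 from wild-type and 8 from knockout hosts. All hosts carried the tumor, so no stroma free of a tumor was profiled, and every tumor was MCG 101. The tumor arrays are of bulk tissue, so their signal may include host cells beside MCG 101 cells. Per the labels, hosts of both sexes were used. Strain, age, time of growth and how the stroma was dissected are not given in the sources used here. The labels give each array a number and do not say that numbers are separate animals, so p-values measure the spread between these arrays, which may in part be technical.

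The level of a gene was the log2 intensity of its probe minus that of the 75th percentile of its array, so that 0 is the brightness of that percentile. The score of an array was the mean level of Aurka, Ccnb1 and Foxm1. The arrays were thus chosen by a measured value, and the same arrays then supplied every other gene. The high-minus-low differences below are therefore descriptions without a test. Tests were run on the score against genotype and sex label, which played no part in the choice, and on the tumor arrays. The groups are called high-score and low-score stroma here, since array levels count no dividing cells.

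Cells that divide pass from G1 through DNA replication into mitosis. Cyclin-dependent kinases drive these steps, cyclins activate them, CDK inhibitors and the retinoblastoma family hold them back, and E2F factors switch on the replication genes. Ccnb1 encodes cyclin B1, the partner of Cdk1 at the entry to mitosis, Aurka encodes Aurora A, a kinase of the spindle poles, and Foxm1 encodes a transcription factor of genes used in G2 and mitosis. In the muscle, fat and fibrous tissue around a tumor most cells rest, while a growing sarcoma has many dividing cells.

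Promoters of late cell cycle genes often carry CCAAT boxes, bound by the factor NF-Y, and the cell cycle homology element TTTGAA or TTTAAA, bound by complexes that repress these genes in resting cells. To show what the score genes share in sequence, the 250 bases before the RefSeq start (GRCm38.p6) are given 5′ to 3′ on the strand of the gene, at chr2:172370571-172370820 (minus strand) for Aurka and chr13:100786487-100786736 (minus strand) for Ccnb1. Capitals mark CCAAT and TTTAAA, neither gene had TTTGAA, and no matches overlapped.
Aurka: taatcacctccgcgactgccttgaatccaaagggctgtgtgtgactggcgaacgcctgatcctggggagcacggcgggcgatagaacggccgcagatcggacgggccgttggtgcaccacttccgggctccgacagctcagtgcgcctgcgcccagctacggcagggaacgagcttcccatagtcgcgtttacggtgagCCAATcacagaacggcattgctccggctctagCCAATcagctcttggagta
Ccnb1: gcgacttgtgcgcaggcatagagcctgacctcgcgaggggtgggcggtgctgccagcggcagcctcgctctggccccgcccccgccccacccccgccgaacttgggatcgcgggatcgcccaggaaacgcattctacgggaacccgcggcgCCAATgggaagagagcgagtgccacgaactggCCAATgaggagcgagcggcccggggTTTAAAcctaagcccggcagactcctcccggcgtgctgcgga
Aurka had CCAAT 51 and 19 bases before the start. In Ccnb1 CCAAT stood 99 and 67 bases and TTTAAA 42 bases before it. Foxm1 was not in the promoter table. Over the same 250 bases on both strands, 37.5% of all 27025 genes of the table had a CCAAT and 28.1% a TTTGAA or TTTAAA. Of the 45 genes of the mitotic and spindle lists described below 37 were in the table, of which 78.4% had a CCAAT, 43.2% a TTTGAA or TTTAAA and 37.8% both kinds, against 10.1% with both kinds over all genes. A match of letters is not evidence that a factor binds there.

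The high-score arrays were wild-type stroma 82 (3.33), 65 (3.27), 45 (2.66) and 68 (2.57) and knockout stroma 12 (1.98). The low-score arrays were knockout stroma 99 (-0.29), 81 (-0.67), 51 (-0.71) and 59B (-1.29) and wild-type stroma 9 (-4.17). Values below are listed in this order. The high-score group thus held 4 wild-type and 1 knockout array, and the low-score group 1 and 4. For every gene below, score group and genotype therefore cannot be fully told apart. Just outside the groups lay wild-type stroma 1 (1.94) and 5 (1.91) on the upper side and knockout stroma 49 (-0.23) on the lower side. Knockout stroma 12 thus differed from wild-type stroma 1 by much less than from wild-type stroma 68. Knockout stroma 95 (0.73), wild-type stroma 4 (0.48) and knockout stroma 15 (0.45) made up the rest of the 6 arrays between. The 16 tumor arrays ran from 2.73 to 3.89 with a median of 3.35. Only wild-type stroma 82 and 65 scored within this tumor range.

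Aurka was 4.39, 4.32, 3.94, 3.65 and 3.02 in the high-score arrays and 0.72, 1.86, 0.72, 1.38 and 0.71 in the low-score arrays. Ccnb1 was 3.18, 3.13, 2.20, 2.21 and 1.78 against -0.53, -1.74, -1.38, -2.66 and -7.51. Foxm1 was 2.42, 2.36, 1.84, 1.85 and 1.13 against -1.07, -2.14, -1.46, -2.59 and -5.70. None of the 3 genes overlapped between the groups. On wild-type stroma 9 Ccnb1 and Foxm1 were not well above background, so that its score is only a bound, while Aurka was well above background on all 16 stroma arrays.

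**Figure D1:**
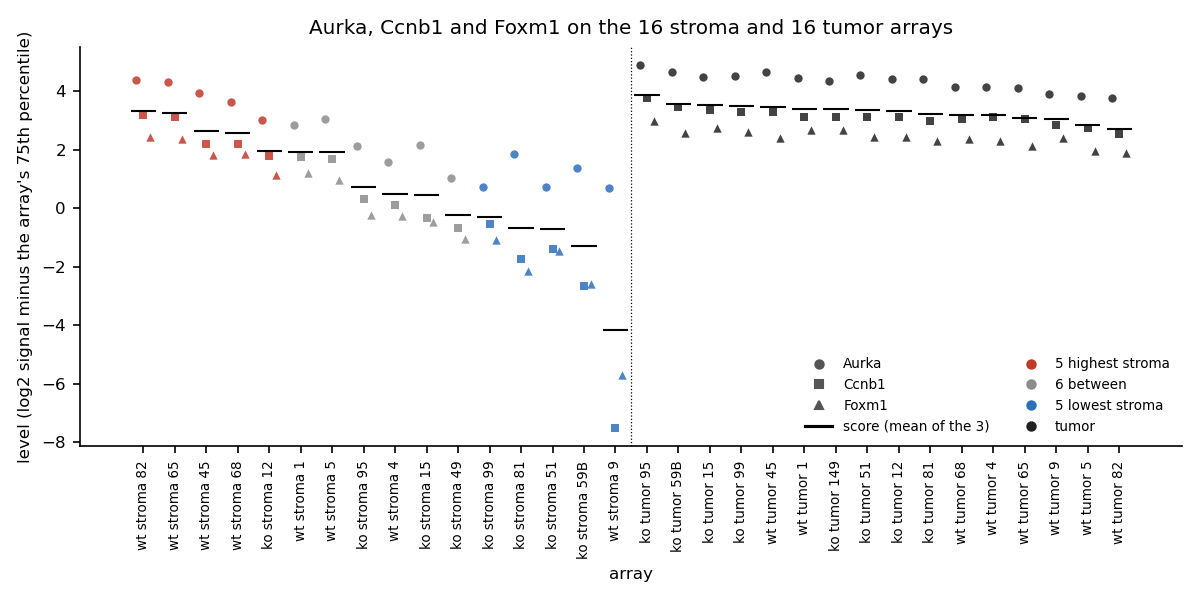
Score, the mean log2 level of Aurka, Ccnb1 and Foxm1, for each array as a black bar, with the 3 genes as circles, squares and triangles, coloured by high-score, between and low-score stroma and tumor. Wild-type stroma 82 and 65 lie within the tumor range of 2.73 to 3.89, and wild-type stroma 9 lies at -4.17, far below the next array at -1.29.

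Several arrays stood apart or went against their labels. On the first principal component of all 32 arrays (62.0% of the variance, 23719 genes) tumor arrays took values of -154 to -24.7, and those of wild-type stroma 82 (-110) and 65 (-61.2) fell among them. The remaining 14 stroma arrays lay at 23.4 to 215. The Xist and Y-linked signals of wild-type stroma 9 and knockout stroma 99 and 95, labelled male, were those of female samples, with Xist at -2.87, -2.04 and -2.38. Tumor arrays knockout 99 and 95 showed the same conflict, whereas wild-type tumor 9 had the signals of its male label. Ptger2 ran from -4.41 to -2.94 in knockout and from -6.25 to -3.15 in wild-type stroma. It was thus no lower in knockout hosts, its probe's place relative to the deletion is not given in the sources used here, and genotype rests on the labels. The 75th percentile signal ran from 1107 to 1540 on high-score and from 692 to 1294 on low-score arrays, and 49.99% to 62.3% and 54.0% to 60.4% of probes were well above background. Each group held 2 arrays of the first scan and 3 of the second, on 4 slides. The number of arrays limits the precision.

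Of 26556 genes measured in stroma, 3090 (11.6%) were higher and 3146 (11.8%) lower in the high-score group by at least 2-fold with no overlap between the 5 and the 5 arrays. A gene that met both conditions is said to be called. These shares are the background for every count of members below, and the choice of arrays fixed part of them. At least 4-fold differences numbered 1427 and 1474, and the median over all genes was -0.13 on the log2 scale. Leaving out wild-type stroma 65 and 82 gave 2718 higher and 3090 lower calls, which held 86.0% and 91.1% of those above. Leaving out wild-type stroma 9 gave 3226 and 3329 calls, with 96.3% and 94.6% held.

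Genes of mitosis followed the score almost without exception. Of 19 mitotic kinases and their regulators 18 were called higher and none lower, with a median difference of 4.74, and all 26 genes of spindle, kinetochore and cytokinesis were called higher with a median of 4.37. Plk1, a kinase needed from centrosome maturation to cytokinesis, was 4.25, 4.17, 3.46, 3.39 and 2.95 against 0.48, -0.53, 0.11, -1.35 and -4.56. Its groups were 4.81 apart, and its 6 arrays between, at 0.36 to 2.93, lay between them except for the lowest, which overlapped the low-score group. Cdk1, the mitotic kinase itself, was 1.73, 1.5, 1.05, 0.55 and 0.73 against -2.33, -5.18, -2.77, -4.45 and -6.61. The difference was 5.38, and Cdk1 was well above background on 3 of the 5 low-score arrays. Top2a, the topoisomerase that untangles chromosomes, had 4.23, 4.13, 3.07, 3.43 and 2.47 against 0.58, -0.96, 0.12, -1.15 and -6.30. Mki67, the gene of the proliferation antigen Ki-67, had 4.68, 4.61, 3.26, 4.10 and 2.91 against 1.59, 0.70, 1.25, 0.05 and -4.39. In each of these genes wild-type stroma 9 was the lowest array. Without wild-type stroma 65, 82 and 9 the list medians were 3.59 and 3.26.

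Pttg1, encoding securin, which holds back the separation of sister chromatids until anaphase, was the exception. It was 3.58, 3.35, 4.51, 3.66 and 4.0 in high-score and 4.53, 5.15, 4.41, 5.29 and 6.20 in low-score arrays, a difference of -1.30 with overlapping groups. Its Pearson r with the score over the 16 stroma arrays was -0.75, against a median r of 0.99 for its list. The genes most like the score by this r were Ska3 and Spc25, both of the kinetochore, Sgo1, which protects centromere cohesion, and Plk1. Fignl1, Melk, Ube2c, Cenph, Trip13 and 3300005D01Rik completed the 10, all with r between 0.992 and 0.997, and between 0.989 and 0.995 without wild-type stroma 9. These r describe 16 arrays that share 3 groups of scores, and no test was made of them.

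Replication genes differed as uniformly and by less. All 29 genes of DNA replication and nucleotide supply were called higher, with a median of 3.06. Mcm5, a subunit of the replicative helicase, was 4.03, 3.90, 2.94, 3.12 and 2.26 against 0.28, -1.07, 0.32, -1.32 and -3.44. Rrm2, the regulated subunit of ribonucleotide reductase, was 4.66, 4.87, 4.20, 4.47 and 3.53 against 1.61, 0.38, 0.91, -0.46 and -2.78. Pcna, the sliding clamp of DNA polymerases, was 5.18, 5.20, 4.87, 4.58 and 4.24 against 3.26, 2.44, 3.20, 2.60 and 2.89. For Pcna wild-type stroma 9 was not the lowest array. Of 12 genes of homologous recombination and its checkpoint 10 were called higher (median 3.62), led by the exonuclease Exo1 (5.41). Brca1 was at 3.98, and Blm (1.01) and Xrcc2 (0.96) were the 2 not called.

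Upstream regulators split more. Of 16 regulators of the step from G1 to S, 12 were called higher and none lower, with a median of 2.49. Mybl2, which acts on late cell cycle promoters, was 4.03, 4.54, 3.40, 3.36 and 2.86 against -0.27, -1.10, -0.25, -1.83 and -3.88, a difference of 5.10. Ccnd1, the D-type cyclin that growth factors induce, was 5.17, 5.14, 4.38, 4.58 and 3.53 against 1.62, 1.69, 2.03, 0.46 and -0.76. E2f1 was higher by 3.39, while E2f2 (-0.39), E2f3 (0.61), Ccnd3 (0.80) and Ccne2 (1.19) were not called. Ccne2 was well above background on 1 low-score array.

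CDK inhibitors and genes of resting cells were not uniformly lower. Of 18 genes 5 were called lower and 2 higher, with a median of -1.34, or -0.82 without wild-type stroma 65 and 82, and 8 were called lower without knockout stroma 12. Foxo1, a transcription factor active when growth signals are low, was 0.73, 0.71, 2.37, 1.78 and 2.54 against 3.94, 3.36, 3.72, 4.40 and 4.07. Tob1 (-2.27), Klf9 (-2.11), Txnip (-1.66) and the retinoblastoma relative Rbl2 (-1.53) were the other lower calls. Cdkn2a, the locus of the inhibitors p16 and p19Arf, lay the other way at 4.83, 4.27, 4.12, 4.54 and 2.14 against 0.69, -0.20, -1.12, -2.13 and -5.04. Its difference of 5.54 exceeded that of Plk1, and the tumor arrays ran from 4.20 to 5.67. Btg1 (1.03) was the other higher call. Cdkn1a (-1.60) and Cdkn1c (-1.98), encoding the inhibitors p21 and p57, and Rb1 (-2.08) overlapped between the groups.

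Myc and ribosome biogenesis genes were called higher in 10 of 16 (median 1.33). Myc was 4.16, 4.0, 3.53, 3.51 and 2.07 against 0.85, -0.16, 0.75, 0.79 and 0.79, and the low-score arrays other than knockout stroma 81 were nearly level. Ribosomal proteins had a median of 0.50 with 2 of 18 called, Rps3 (1.12) and Rpl3 (1.07), and the list median was 0.30 with quantile scaling. Among 15 hypoxia and glycolysis genes the median was -0.02. Eno1 (2.31), Car9 (1.74), Pfkp (1.35) and Slc2a1 (1.14) were called higher and Hk2, a hexokinase (-2.18), and Bnip3, a mitophagy receptor (-2.10), lower.

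**Figure D2:**
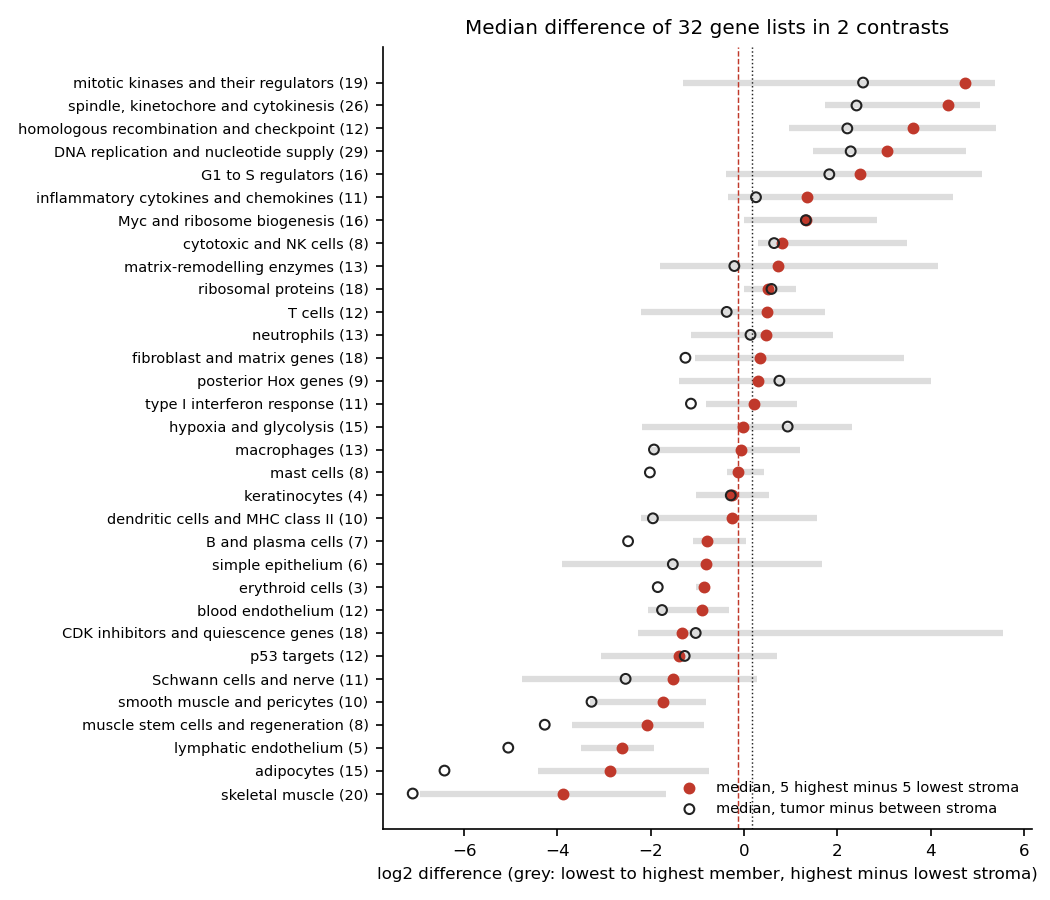
Median log2 difference of 32 gene lists, high minus low stroma beside tumor minus the 6 stroma arrays between, as filled and open circles. Grey bars run from the lowest to the highest member in stroma, and the dashed and dotted lines are the medians of all genes in the 2 contrasts. Cell cycle lists lie furthest to the right in both contrasts and skeletal muscle furthest to the left (-3.89 and -7.10), while the fibroblast list lies at 0.35 in the first and at -1.26 in the second.

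The widest differences were in genes outside the cell cycle lists. Rhox5, a homeobox gene of the reproductive tract, was 6.58, 6.62, 6.66, 6.38 and 4.75 against 2.37, 0.94, 0.94, -1.05 and -7.50, a mean of 6.20 ± 0.82 against -0.86 ± 3.91 (SD, n = 5 each). On wild-type stroma 9 it was not well above background, and without that array the groups were 5.40 apart. Crabp1, which binds retinoic acid, was 8.05, 7.75, 7.92, 7.20 and 5.89 against 3.39, 2.71, 1.89, 0.18 and -4.30. Knockout stroma 12 was the lowest high-score array in both. Dnajc22, Car12, Gm10439, Gap43, Afp and Lrp2 had differences of 6.18 to 6.48 with no settled order, since each was well above background on only 1 to 4 of the 5 low-score arrays. Luzp4 was not well above background on any low-score array and was at least 25.8-fold higher. That bound sets the mean of the high-score group against the lowest signal that was well above background on each low-score array. Among genes bright on all 10 arrays, a choice made after seeing the data, Crabp1 led, followed by Hmga2, an embryonic chromatin protein (5.92), the linker histone H1f5 (5.90) and Cdkn2a. Hmga2 was 4.74, 4.82, 3.52, 4.25 and 2.44 against -0.22, -0.55, -1.08, -2.87 and -5.12. Without wild-type stroma 65, 82 and 9 Rhox5 was higher by 5.13, Crabp1 by 4.96 and Hmga2 by 4.58.

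Each of these genes was also high in the tumor. To set the stroma groups beside the tumor without sharing arrays, the 16 tumor arrays were compared with the 6 stroma arrays between. In limma 9385 (34.9%) of 26903 genes were higher and 6315 (23.5%) lower in tumor at a Benjamini-Hochberg adjusted p under 0.05, and the median of all genes was 0.18 (0.04 when scaled to probes bright on all arrays). Tumor arrays ran from 6.12 to 7.37 for Rhox5, which was higher in tumor by 3.56 ± 0.45 (SE, adjusted p = 6.08e-07). Crabp1 was higher by 3.57 ± 0.45 (adjusted p = 5.02e-07) and Hmga2 by 3.35 ± 0.33 (adjusted p = 3.33e-08). Of the 3090 genes called higher in high-score stroma, 2999 (97.1%) were higher in tumor, 90 were not called there and 1 was lower. Of the 3146 called lower, 2476 (78.7%) were lower in tumor, 442 were not called, 228 were not tested and none was higher. Over 25623 genes measured in both, Pearson's r between the contrasts was 0.83 and Spearman's rho 0.84, as a description over genes, which are not independent and share probes and scaling.

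**Figure D3:**
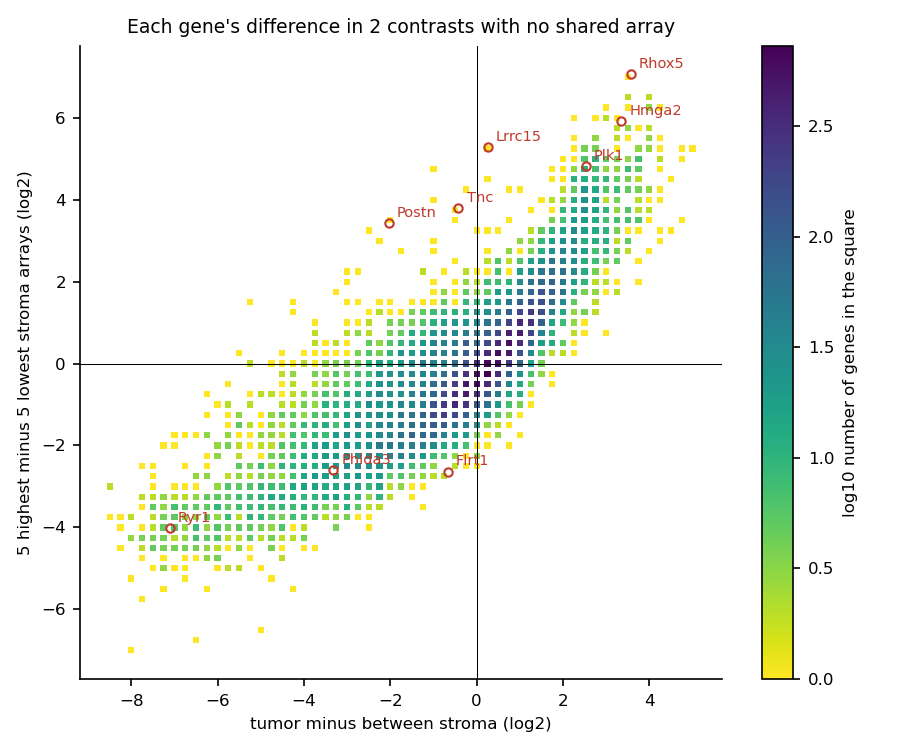
Density of 25623 genes by their log2 difference between tumor and the 6 stroma arrays between (horizontal) and between high-score and low-score stroma (vertical), with example genes labelled and colour for the number of genes in a square (log10). Most genes lie along a rising band (r = 0.83), and Postn, Lrrc15 and Tnc lie high on the vertical axis at horizontal values of -2.03, 0.25 and -0.42.

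In the high-score group, 2939 (95.1%) of the genes called higher had a mean within 2-fold of the tumor mean, 136 lay further below it and 15 further above. Of the genes called lower, 2252 (71.6%) had a mean within 2-fold of the tumor mean, and in 889 the high-score mean was at least 2-fold above it. The share of all measured genes within 2-fold of the tumor mean was not counted. These 2 shares therefore have no background and do not set the called genes apart from other genes. No measured gene had high-score arrays all beyond both the low-score and the tumor arrays. The question how far the high-score arrays resemble tumor was followed array by array with 50 genes chosen, after seeing the data, for the largest tumor-minus-between difference, among them Grem1, Gap43, Sox2 and Areg. That difference does not include high-score and low-score arrays, and choosing by it favours low values on the arrays between by construction. These arrays did enter through the filter, which asked for a signal well above background on at least 5 stroma arrays. They also entered through the choice of the probe with the highest stroma mean. Of the 50 genes 29 were well above background on no low-score array. The percentages and counts on the high-score arrays below are therefore in part built in. The median signal of these genes, as a percentage of the tumor mean, was 91.1 on wild-type stroma 82, 78.8 on 65, 51.6 on 45, 50.3 on 68 and 15 on knockout stroma 12. On the arrays between it was 28.3 (wild-type 1), 22.2 (wild-type 5), 9.09 (knockout 95), 2.41 (wild-type 4), 2.16 (knockout 15) and 2.38 (knockout 49). The low-score arrays had 2.94, 2.29, 1.49, 1.35 and 1.06. Of the 50 genes 44 to 50 were well above background on each high-score array, and 18, 11, 10, 7 and 0 on the low-score arrays, so the low percentages are close to background.

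The replication list, measured the same way, stood at 106.8%, 106.9%, 72.4%, 69.2% and 47.7% of the tumor mean on the high-score arrays and at 11.6%, 8.71%, 12.4%, 7.02% and 4.77% on the low-score arrays. The mitotic kinase list stood at 113.5%, 109.6%, 67.4%, 65.4% and 45.6% against 9.04%, 4.13%, 5.81%, 2.59% and 0.41%. On each of the 16 stroma arrays the replication list lay above the tumor-high genes. On knockout stroma 12 these cell cycle lists lay at 45.6% and 47.7% where the tumor-high genes lay at 15%. The 2 kinds of gene ran closer together on wild-type stroma 82, 65, 45 and 68. Among the arrays between, replication genes had 40.0% (wild-type 1), 49.2% (wild-type 5) and 16.4% (knockout 95). They had 15.8% (wild-type 4), 16.1% (knockout 15) and 11.5% (knockout 49) on the others. The tumor-high genes were chosen for a wide tumor-minus-between difference, which builds a gap into the arrays between. Those arrays therefore cannot show whether the gap on knockout stroma 12 is particular to it. Fibroblast genes lay between 80.0% and 758% of the tumor mean over all 16 stroma arrays. Whether the cell cycle signal came from tumor cells in the dissected stroma or from host cells was not tested, and in bulk tissue fewer cells of a type and less RNA per cell cannot be told apart.

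**Figure D4:**
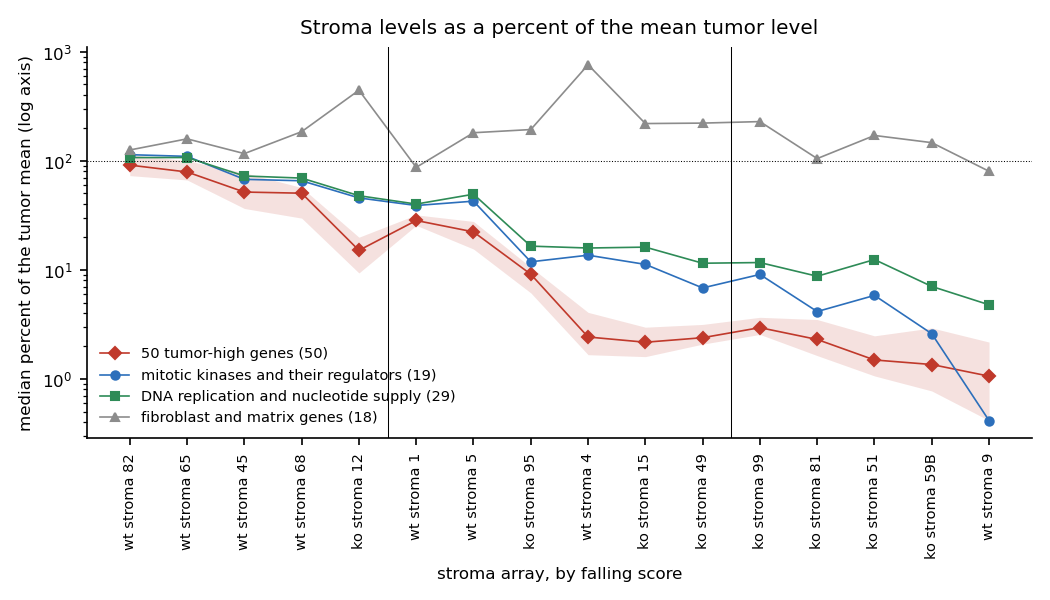
Median signal of the 50 tumor-high genes (with quartiles shaded) and of other lists on each stroma array as a percentage of the tumor mean, on a logarithmic axis, with arrays ordered by score and vertical lines between the high-score, between and low-score groups. The tumor-high genes drop from 91.1% to 1.06%, and the replication list lies above them on each stroma array. It stands at 47.7% against 15% on knockout stroma 12 and at 4.77% against 1.06% on wild-type stroma 9.

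Of 20 skeletal muscle genes measured, 8 were called lower and none higher in high-score stroma, with a median of -3.89, and all 20 were lower in tumor (median -7.10). Ryr1, the calcium release channel of muscle, was -0.76, 0.63, 4.57, 4.0 and 4.90 in the high-score arrays against 6.13, 7.04, 6.29, 6.75 and 7.26. Neb, the giant thin filament protein nebulin, was -0.40, 0.52, 3.95, 3.29 and 4.06 against 6.30, 6.52, 6.04, 6.40 and 7.15. Wild-type stroma 82 and 65 were the lowest stroma arrays in both genes, and the other high-score arrays stayed below each low-score array. Without wild-type stroma 65 and 82 Ryr1 was lower by 2.21, Neb by 2.72 and the list median was -1.75. The mean level of the list ran from 0.36 to 6.46 in high-score, 6.22 to 7.19 in between, 6.72 to 8.31 in low-score stroma and -4.25 to 5.14 in tumor.

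Of the 8 muscle stem cell and regeneration genes, Pax7 (-3.68) and Myod1 (-3.46) were called lower (median -2.08). Pax7, which marks satellite cells, was -6.66, -7.41, -4.57, -4.97 and -3.83 against -1.43, -2.29, -1.79, -1.24 and -2.29. The list median was -0.79 without wild-type stroma 65 and 82, and 0.44 between knockout stroma 12 and wild-type stroma 9, which shared slide 4. Adipocyte genes had 5 of 15 called lower (median -2.87, or -1.55 without wild-type stroma 65 and 82). Lpl, which releases fatty acids from lipoproteins, was 0.83, 1.51, 2.36, 2.24 and 2.48 against 4.04, 3.69, 4.13, 3.53 and 5.47. Slc2a4, the insulin-responsive glucose transporter shared by fat and muscle, was lower by 4.42.

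Some nerve and vessel genes were called lower. Of 11 Schwann cell genes 4 were called lower (median -1.52). Among them was Sox10, a transcription factor of the Schwann cell lineage, at -6.59, -5.74, -3.73, -4.32 and -4.0 against -1.44, -1.39, -2.55, -2.51 and -1.45. Its groups did not overlap, and it was lower by 3.01. Ncmap, a protein of non-compact myelin, was lower by 3.84. Blood endothelium had 3 of 12 genes called lower (median -0.91), Vwf (-2.06), Ptprb and Flt1 (-1.84). Without knockout stroma 12 the count was 9 of 12 (median -1.20), and between knockout stroma 12 and wild-type stroma 9 on slide 4 the median was 0.10. Lymphatic endothelium had 2 of 5 (median -2.62, or -1.52 without wild-type stroma 65 and 82), Reln and Ccl21a (-2.96). Smooth muscle and pericytes had 5 of 10 (median -1.74), with Myh11 at -2.79 and Rgs5 at -1.77. None of these lists had a gene called higher, and in tumor 8 of 11, 12 of 12, 5 of 5 and 10 of 10 were lower.

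Targets of p53 were lower without exception among the calls. Of 12 genes 7 were called lower and none higher (median -1.39). Phlda3, an inhibitor of Akt, was 2.49, 2.74, 5.35, 4.28 and 5.62 against 6.56, 6.95, 6.11, 6.75 and 7.14. Perp (-3.07), Ccng1 (-2.46) and Eda2r (-2.35) were the others with differences over 2 log2 units. In tumor Phlda3 was lower by 3.32 ± 0.31 (SE, adjusted p = 1.81e-08). Of the 12 genes 7 were lower and 2 higher in tumor, so the list was not uniform there. The mean level of the skeletal muscle list moved the same way on these arrays, at 0.36 to 6.46 against 6.72 to 8.31, and its part in the p53 list was not tested.

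Few immune genes were called. Of 13 macrophage genes 1, Itgam, was called lower (-1.32), with a list median of -0.08. T cells had 1 of 12 called lower, the costimulatory receptor Cd28 (-2.20, list median 0.49), cytotoxic and NK cells 1 of 8 called higher, the transcription factor Eomes (3.50, median 0.82), and B and plasma cells 1 of 7 called lower, Cd22 (median -0.78). No gene of the lists for neutrophils (0.46), dendritic cells and MHC class II (-0.27), mast cells (-0.12), erythroid cells (-0.85) or type I interferon response (0.22) was called. Simple epithelium (-0.82) had none and keratinocytes (-0.26) 1 called gene, Trp63. Without wild-type stroma 9 the medians were -0.00 for T cells, 0.30 for cytotoxic cells, -0.62 for macrophages, -0.55 for dendritic cells, 0.22 for neutrophils and -0.24 for the interferon response. Inflammatory cytokines and chemokines had a median of 1.36, or 0.33 without wild-type stroma 9, with 1 of 11 called. That gene was Ptgs2, the inducible cyclooxygenase that makes the precursor of prostaglandin E2. It was 1.5, 3.21, 0.89, 0.56 and 0.20 against -2.12, -2.11, -2.59, -3.47 and -5.76, a difference of 4.48, or 3.12 without wild-type stroma 65, 82 and 9. Tumor arrays ran from 0.84 to 4.54, higher than the arrays between by 3.59 ± 0.55 (SE, adjusted p = 7.34e-06).

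Of 9 posterior Hox genes Hoxa11 was called higher (4.0) and Hoxc10 (-1.38) and Hoxc9 (-1.17) lower. Hoxa11, which patterns the limb, was 1.51, 1.07, 0.94, 0.79 and -0.63 against -3.37, -3.41, -4.0, -3.05 and -2.48, and tumor arrays ran from 0.95 to 2.03. Over all genes 11.6% were called higher and 11.8% lower, so these few calls do not set the list apart. Without wild-type stroma 65 and 82, 1 of the 9 was called lower. Without the arrays against their sex label 3 were.

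Some genes were higher in high-score stroma without a call upward in tumor. Among these 91 higher calls not called higher in tumor, 10 named for their wide difference and a bright signal on all high-score arrays were Lrrc15 (5.29), a marker of activated fibroblasts, the water channel Aqp5 (4.74), Cthrc1 (4.49), Ltbp2 (4.26), C1qtnf3 (4.10), Tnc (3.79), Postn (3.42), Apln (3.42), Prnd (3.41) and Timp1 (3.21). Their order is not settled, since Lrrc15 was well above background on 2, Aqp5 on 1 and Prnd on 3 of the 5 low-score arrays. Postn, the matricellular protein periostin, was 2.67, 3.85, 2.56, 4.29 and 4.31 against 2.03, -0.71, 1.47, 0.26 and -2.46. Wild-type stroma 4, of the arrays between, had the highest Postn of all stroma arrays (5.92), and tumor arrays ran from -1.52 to 3.61. Postn was lower in tumor than in the arrays between by 2.03 ± 0.79 (SE, adjusted p = 0.0312), a call lost without wild-type stroma 5 (adjusted p = 0.105), 4 (0.127) or knockout stroma 49 (0.0676).

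Cthrc1, a secreted protein of scar-forming fibroblasts, was 2.62, 2.69, 1.98, 3.53 and 3.25 against 0.05, -2.13, -0.62, -0.55 and -5.14. It was 4.68 on wild-type stroma 4 and 1.75 to 3.37 in tumor. Tnc, the matrix protein tenascin C, was -1.12, 0.80, -1.63, 0.35 and -0.36 against -2.39, -6.26, -4.20, -4.41 and -3.63. Lrrc15 was -0.89, 1.73, -2.12, 0.12 and -0.58 against -4.24, -5.71, -5.25, -5.36 and -7.63, and 2.77 on wild-type stroma 4. In these genes the high-score arrays did not fall in the order of the score, and knockout stroma 12 lay above wild-type stroma 82. Cthrc1, Lrrc15 and Tnc did not pass the test between tumor and the arrays between, at 0.24 ± 0.46, 0.25 ± 0.97 and -0.42 ± 0.78 (SE, adjusted p = 0.673, 0.842 and 0.666). The sign for Lrrc15 and Cthrc1 turned with slide as a block and without knockout stroma 15, and Timp1 (0.62, adjusted p = 0.217) passed at 0.99 without wild-type stroma 5 (adjusted p = 0.0418).

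Most fibroblast genes did not move with this group. Of 18 fibroblast and matrix genes 2 were called higher, Postn and Col6a1 (2.13), with a list median of 0.35, or 0.06 without wild-type stroma 9 and 0.12 without knockout stroma 12. Col1a1 was at 1.35, Fap, a marker of activated fibroblasts, at -0.08 and Dcn, the proteoglycan decorin, at -0.55, all overlapping. Matrix-remodelling enzymes had Timp1 called higher and Timp3 called lower (-1.80) among 13 (median 0.72, or 0.47 without wild-type stroma 9 and 0.30 without knockout stroma 12), and both are inhibitors of metalloproteinases.

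**Figure D5:**
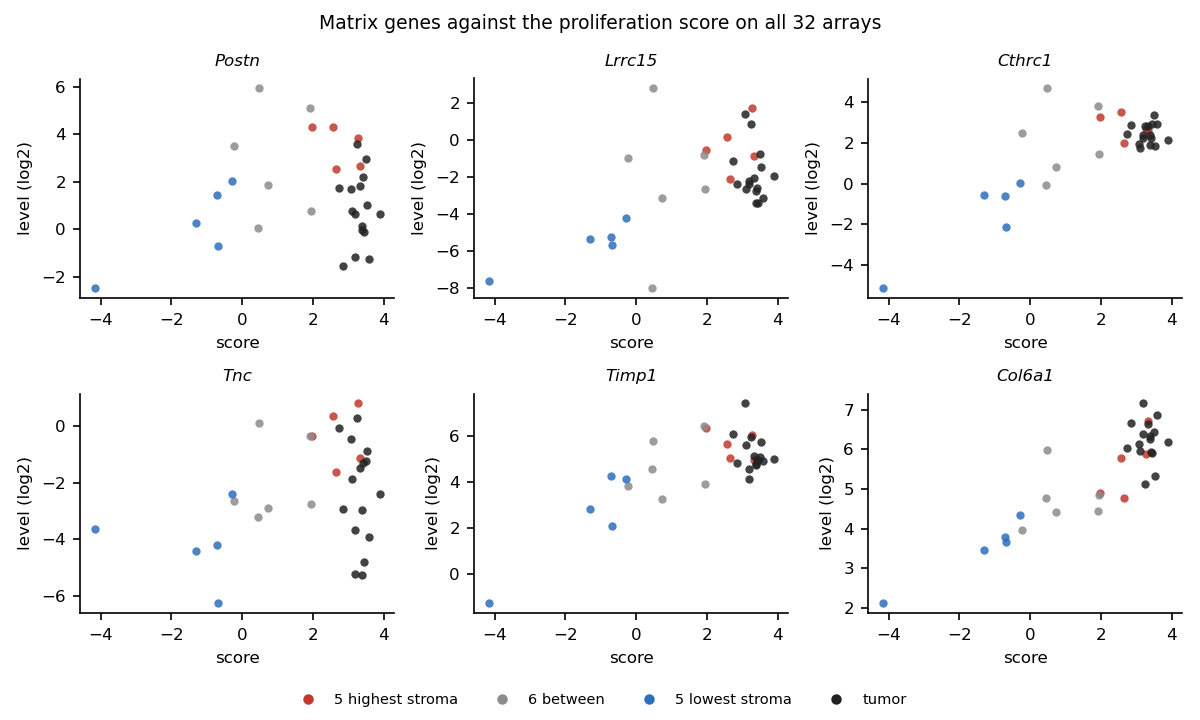
Log2 level of Postn, Lrrc15, Cthrc1, Tnc, Timp1 and Col6a1 against the score, with 1 point per array, coloured by stroma group, and tumor arrays in black. Wild-type stroma 4, at a score of 0.48, is the highest stroma array for Postn (5.92), Lrrc15 (2.77) and Cthrc1 (4.68).

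Lower calls that the tumor did not share are sized here only where well above background on all 10 high-score and low-score arrays. The rises above needed this only on the high-score arrays, so the sizes of falls and rises are not comparable. Among these falls Flrt1, an adhesion receptor, was lower by 2.64, 2610035D17Rik by 2.28, the chemokine receptor-like gene Ccrl2 by 2.12 and Bnip3 by 2.10. Flrt1 was -1.75, -3.71, -2.65, -1.86 and -2.39 against -1.18, 0.49, -0.58, 0.86 and 1.25, and its tumor-minus-between difference was -0.67 ± 0.54 (SE, adjusted p = 0.300). Olfr78 was not well above background on any high-score array and was at least 2.18-fold lower. The lowest r with the score belonged to Vps11, Zfp46, Dctn4, Ccser2, Napepld, Fam120c, Zbtb7c, Rhoq, Jak2 and Kcna7, at -0.931 to -0.920. Jak2, a kinase of cytokine receptors, was 0.01, 0.38, 0.41, 0.65 and 0.66 against 1.0, 1.91, 1.35, 1.39 and 2.03.

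The tumor arrays were also grouped through the stroma arrays. Of the 16 tumor arrays 15 share a number with a stroma array, though the labels do not say that a number marks 1 host. In 9 of 15 pairs, not in all, same-numbered arrays deviated together (r over 0.1), and only 2 arrays correlated best with their own number. How often arrays of different numbers passed that r is not given here. Calls or their lack therefore bear only on this grouping. The 5 tumors numbered as high-score stroma were compared with the 5 numbered as low-score stroma. They held the same mix of genotypes, 4 wild-type and 1 knockout against 1 and 4, and the fit had no genotype term. This grouping and genotype therefore cannot be fully told apart. In limma 0 of 25150 genes (0%) passed at an adjusted p under 0.05, with 1249 (4.97%) below 0.05 before adjustment and 0.938 as the lowest adjusted p. The medians of the mitotic, spindle and replication lists were -0.01, -0.07 and -0.03, against 0.07 for all genes. The lowest p values were those of Unc13d (-1.66 ± 0.36), Cysltr1, Cd7, Qpct and Nlrc4 (-1.61 ± 0.39) downward and Kcnj4 (1.06 ± 0.27) and Pabpc1l (0.61 ± 0.17) upward (SE, adjusted p = 0.938 each).

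Across the 16 tumor arrays the score itself varied little, and the slope of each other gene on it was fitted. None of 25489 genes passed upward (0%) or downward (0%), 2683 (10.53%) were below 0.05 before adjustment, and 0.0559 was the lowest adjusted p. The leading genes upward were Melk (1.05 ± 0.15 log2 units per unit of score), Bub1 (0.91 ± 0.14), Ccna2 (1.07 ± 0.16) and Plk1 (1.0 ± 0.16, SE, adjusted p = 0.0559 each). Downward they were Zc3h12a, an RNase that limits cytokine transcripts (-3.05 ± 0.55, adjusted p = 0.0933), and Lif (-3.57 ± 0.73, adjusted p = 0.106). Spindle genes had a median slope of 0.81 and inflammatory genes of -2.46, against 0.05 for all genes. Other scalings gave calls, up to 93 upward and 57 downward when probes of a gene were averaged, and 0 with slide as a block.

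The score was compared with the labels. The mean was -0.0035 ± 1.03 in knockout hosts and 1.5 ± 2.46 in wild-type hosts (SD, n = 8 per genotype), which differ by -1.5 (two-sided exact permutation p = 0.133, adjusted p = 0.265 over 6 tests). With normexp the difference was -1.66 (exact permutation p = 0.0402). Without wild-type stroma 9 it was -2.31 (exact permutation p = 0.00218). Without wild-type stroma 9 and knockout stroma 99 and 95, against their sex label, it was -2.39 (exact permutation p = 0.00641). Without wild-type stroma 65 and 82 it was -0.90 (exact permutation p = 0.398). Wild-type stroma 9 had the lowest score and 82 and 65 the highest, so leaving them out selects on the score itself. The p values without them are unadjusted and do not stand in for that of all arrays. Within slides 2, 3, 5 and 6 knockout minus wild type was -3.97, -2.17, -2.45 and -2.27, and within slide 4 it was 6.14, knockout stroma 12 against wild-type stroma 9. The high-score group held 4 wild-type and 1 knockout array and the low-score group 1 and 4. Sex label gave an exact permutation p of 0.5.

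In tumor the order was the other way. Knockout tumors scored 3.47 ± 0.20 and wild-type tumors 3.12 ± 0.25 (SD, n = 8 each), a difference of 0.35 (two-sided exact permutation p = 0.00637, adjusted p = 0.0382), a comparison added after seeing the data. Slide 1 held 4 knockout and no wild-type tumors, and without it the difference was 0.33 (exact permutation p = 0.0667). Within slides 2, 3 and 4 it was -0.22, 0.69 and 0.33. Stroma minus tumor differed by -1.83 between genotypes over 15 numbers (exact permutation p = 0.0939, adjusted p = 0.265). Stroma and tumor scores of the same number had a Pearson r of -0.23 (permutation p = 0.411, adjusted p = 0.494) and a Spearman rho of -0.32 (permutation p = 0.248, adjusted p = 0.372) over 15 pairs. Without wild-type stroma 9 and 82, farthest from the median, r was -0.39, and within genotypes it was -0.01 (wild type, n = 8) and 0.10 (knockout, n = 7), given as descriptions.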

How the data were processed

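One-colour arrays were hybridised with Cy3-labelled RNA of 16 stroma and 16 tumor samples, per the labels' protocols. The deposited files hold processed spot intensity, for which the submitters' processing notes name Feature Extraction 10.7.3.1, and the deposited series matrix holds log2 values, which matched the scanner values up to an offset per array and were centred on a tissue median, with column medians of -0.315 to 0.563. Levels were log2 intensity minus the 75th percentile of the array. Spots of a probe were averaged, and each gene took its probe with the highest mean over stroma arrays. Genes had to be well above background on at least 5 of 16 arrays (6 of 22 for tumor against stroma). Tests used limma 3.58.1 in R 4.3.3 with Benjamini-Hochberg adjustment and were checked on simulated data. Normexp used the median signal in place of the planned mean. Named genes were the 3 score genes, up to 4 called members of each list, the 10 widest calls in each direction (also among those the tumor did not share) and the 10 highest and lowest r with the score, bright on all arrays of the higher group, and the 5 smallest p of each tumor test. Other list members were named after their values were seen. Arrays, members and lists were chosen with earlier results of these data known. Alternatives were scaling, background correction, probe choice, filters, slide and scan blocks and left-out arrays. A few genes that the rule names are not reported here.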

Additional observations from a re-analysis of the deposited data

Results flagged for a closer look

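Of 92 groups of values examined, 4 had 1 array far from the others, and all 4 concern wild-type stroma 9. The limit for a flag was set at 1 in 20 for separate groups. These groups overlap, the score holds the flagged genes, and some groups were cut by the score, so the count cannot be set against chance. Its score of -4.17 lay apart from the next low-score array, at -1.29, and from the next wild-type stroma array, at 0.48. In wild-type stroma its Ccnb1 level of -7.51 lay apart from the next at 0.11, and its Foxm1 level of -5.70 from the next at -0.25. Neither gene was well above background there.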

How the results depend on the processing

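With 1 array left out at a time, higher and lower calls in stroma ran from 2925 to 3886 and from 3126 to 3951. Stricter or narrower settings moved them more: 1842 lower calls with only genes bright on every array, 441 and 71 with 8 arrays against 8, 1427 and 1474 at 4-fold, and 5404 and 4944 lower calls within the first and second scan. Tumor-minus-between calls ran from 9175 to 9731 higher and 6164 to 6511 lower without a tumor array, and from 8866 to 9246 and 5424 to 6226 without a stroma array, with 3525 lower with genes bright on every array. Same-numbered stroma and tumor arrays deviated together in 9 of 15 pairs (r over 0.1, range -0.04 to 0.39) and 2 arrays correlated best with their own number, so numbers were not taken to pair samples, and the replicate block gave 9708 higher and 6423 lower calls. The tumor slopes gave 68 higher and 48 lower calls with normexp, 25 and 12 with quantile scaling, 35 and 31 scaled to bright probes, 26 and 4 with bright genes alone, 93 and 57 with averaged probes, 39 and 4 with trended robust limma and 5 higher with the series matrix, and 0 to 1 without 1 array. The tumor groups by stroma number gave 0 to 0 calls without 1 array. The stroma genotype difference over all arrays was -1.5 (exact permutation p = 0.133, adjusted p = 0.265). It was -1.66 with normexp and -2.39 without arrays against their sex label, both past the threshold before adjustment only. The latter set leaves out wild-type stroma 9, the lowest score, and so selects on the score. The genotype difference was -0.90 without wild-type stroma 65 and 82 (exact permutation p = 0.398) and -2.31 to -1.24 without 1 array. The tumor genotype difference was 0.33 without slide 1 and 0.29 to 0.40 without 1 array. The pair r was 0.050 without wild-type stroma 65 and 82 and -0.52 to -0.06 without 1 pair. Within slide 4 the muscle stem cell median was 0.44 and that of blood endothelium 0.10. Tumor-minus-between values changed sign for Lrrc15 (-0.30 with normexp, -0.59 with slide as a block, -0.92 to 1.24 without 1 stroma array, lowest without knockout stroma 15), Cthrc1 (-0.15 with slide as a block, -0.21 to 0.74 without 1 stroma array, lowest without knockout stroma 15, and -0.03 without knockout stroma 95), Prnd (-0.82 to 0.026 without 1 stroma array, highest without wild-type stroma 5) and Aqp5 (-1.48 to 0.019 without 1 stroma array, highest without wild-type stroma 4). The cause was not tested. Counts with slide as a term could not be defined, since calls rest on overlap.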
